A study of Homo sapiens with 3 samples.

Results

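Newly made histones are carried to DNA by histone chaperones, and the 9 genes described here encode such chaperones, an enzyme that acts on the histones they carry, and the RNA-binding protein that histone messages need. The genes were CHAF1A, CHAF1B, ASF1A, ASF1B, NASP, HAT1, HIRA, HJURP and SLBP. They were taken by symbol, and all 9 were found among the 22613 genes listed in each library. The cells were LNCaP-abl, a prostate cancer line derived from LNCaP that grows without androgen, kept in medium with serum stripped of steroids. They were transfected with control siRNA (2 libraries, numbered 0 and 1 in the labels) or with pooled siRNAs that target E2F1 (1 library, called siE2F1), and RNA was taken after 72 h. E2F1 is a transcription factor that activates genes for entry into S phase. The siE2F1 group is 1 library of 1 siRNA pool, and its values lack a replicate. Whether the controls were separate cultures is not in the labels, so p-values reflect the spread of 2 control libraries that may differ for technical reasons only.

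Chromatin must be rebuilt behind each replication fork. ASF1 proteins bind new histones H3 and H4 and hand them to CAF-1, the complex of CHAF1A, CHAF1B and RBBP4 that assembles nucleosomes on newly replicated DNA, or to HIRA, which deposits the variant H3.3 outside replication. Histone messages of S phase end in a stem-loop in place of a poly(A) tail, and SLBP binds that stem-loop to promote their processing and translation. Several of these genes, CHAF1A, CHAF1B and ASF1B among them, are known to be expressed mainly in dividing cells.

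Levels are given in FPKM, fragments scaled to transcript length and to the number of mapped fragments. Where 3 levels follow each other, they are control 0, control 1 and siE2F1 in that order. Differences are siE2F1 minus the mean of the controls in log2(FPKM + 1), a scale on which the change of low genes is understated. The limma test ran over the 14401 genes that averaged 1 FPKM or more. All 9 genes passed this filter (lowest level in any library 8.83 FPKM). The test was repeated on the 13928 genes left without small RNA genes; the prior degrees of freedom, which tell how far limma pools the spread of different genes, were 1.69 with them and 3.19 without. An adjusted p is over all genes tested unless said otherwise. A call means an adjusted p under 0.05 (Benjamini-Hochberg, two-sided).

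E2F1 itself was at 10.6 FPKM in each control and 1.68 FPKM in siE2F1, 15.8% of the control mean (limma adjusted p = 0.0311; the call was lost under 2 alternative settings, at 0.0601 and 0.159). Read counts were not given, so depth is unknown. Among luminal prostate markers, HOXB13 was at 122.9, 118.9 and 94.6 FPKM, KRT8 at 110.6, 121.0 and 159.0 FPKM and KRT18 at 146.5, 140.9 and 163.7 FPKM. Of 3 basal markers KRT14 was listed at 0 in every library and the other two were not in the files. Of 3 markers for each other type, 2 leukocyte, 2 fibroblast and 1 endothelial marker (PECAM1) were in the files. Those listed summed to 0.696 to 6.44 FPKM by type and library. CD68 was at 5.47, 5.29 and 5.67 FPKM and PTPRC at 0.842, 1.15 and 0.423 FPKM. COL1A1 was at 1.01, 0.868 and 0.606 FPKM and PECAM1 at 0.696, 0.769 and 0.837 FPKM.

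E2F factors bind GC-rich sites close to transcription starts, so the RefSeq promoters of the genes (build GRCh38.p14, 250 bases before to 50 after the start) were searched for the site's letters. The full words were TTTCCCGC, TTTCGCGC, TTTGCCGC and TTTGGCGC, on both strands, and the shorter words the same without their first T, so that each full match is also a short one. All 9 genes had a promoter entry. The full words were in 1 of the 9 (HIRA) and in 3.31% of all 35116 promoters, and the short words in 4 of the 9 (CHAF1A, CHAF1B, HIRA and HJURP) and in 13.0% of all promoters. The word TTTGAA, the core of the CHR element of genes expressed late in the cell cycle, was in 2 of the 9 (ASF1B and HJURP) and in 15.2% of all promoters. Stretches of 30 bases around matches are shown because E2F1, the silenced gene, encodes a factor that reads sites like the full and short words. The stretch of ASF1B marks TTTGAA instead, and ASF1B held none of the full or short words in this window. Capitals mark the word, read on the strand of the gene, with 1 match in the E2F1 promoter for comparison.
CHAF1A (chr19:4402592-4402621, plus strand): ggctcgcccaaTTGGCGCgcggactgcggg
CHAF1B (chr21:36385379-36385408, plus strand): gcctgcggcgcGCGGGAAgcggcgcgcgct
HIRA (chr22:19431760-19431789, minus strand): gtggggagcggTTTCCCGCcggggcgattt
HJURP (chr2:233854509-233854538, minus strand): tgcagtccgggTTGGCGCttgggtactggc
ASF1B (chr19:14136599-14136628, minus strand): ggaggccggctaTTTGAAggcggcgcgcgg
E2F1 (chr20:33686387-33686416, minus strand): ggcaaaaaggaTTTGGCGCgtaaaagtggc
The word began 37 bases before the start in CHAF1A (which also held TTCCCGC 7 bases before it), 2 before in CHAF1B (on the opposite strand), 45 before in HIRA, 27 before in ASF1B and 20 before in E2F1, and 8 bases after the start in HJURP. A match is only a match of letters, and ASF1A, NASP, HAT1 and SLBP held none of these words in this window.

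The siE2F1 library was below both controls for all 9 genes, against 39.7% of all genes tested, and above both for none, against 43.7%. The median difference of the 9 was -0.58, that of all genes tested 0.01. None of the 9 was called by limma over all genes tested, where 0.104% of genes were called lower and 0.312% higher, while 7 had an unadjusted p under 0.05, against 28.4% of all genes tested. Without small RNA genes 7 of the 9 were called lower and none higher, against 6.36% of genes called lower and 4.17% higher. Those 7 were CHAF1A, CHAF1B, ASF1A, ASF1B, HAT1, HJURP and SLBP; NASP and HIRA did not pass. In these bulk libraries fewer cells in S phase and less of each message per cell cannot be told apart.

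**Figure D1:**
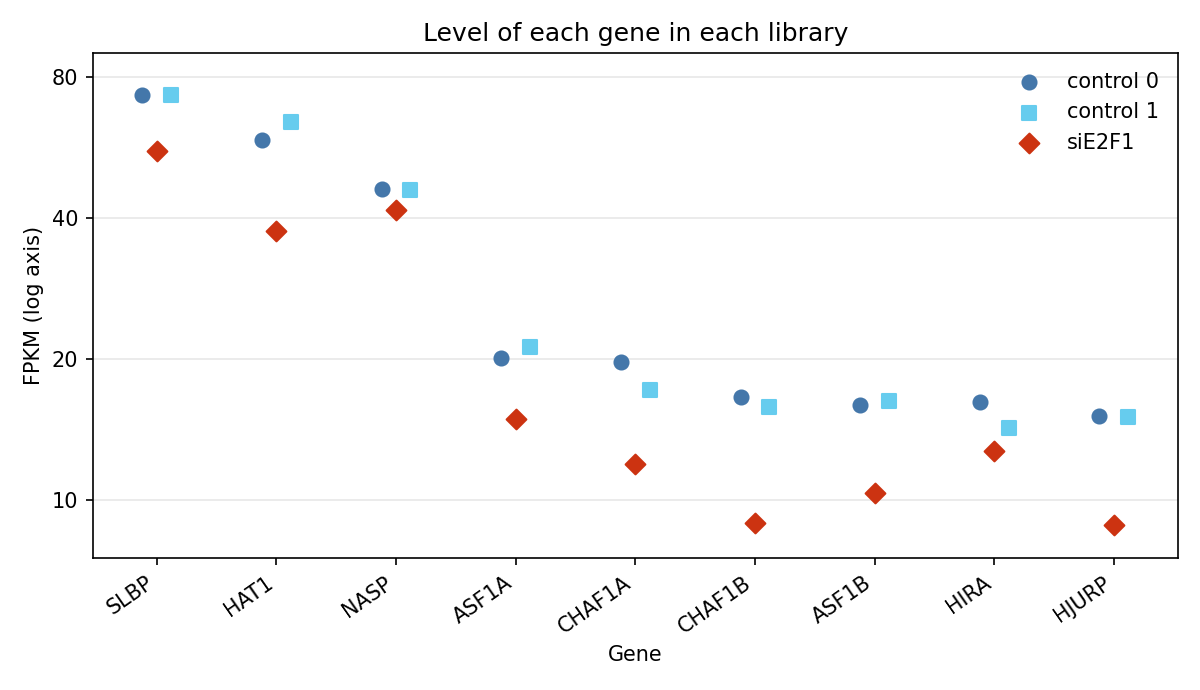
FPKM (log axis) of the 9 genes in control 0, control 1 and siE2F1, 1 point per library, ordered by control mean. The siE2F1 diamond lies under both control points for each gene, from SLBP at 55.7 against 73.1 FPKM in each control down to HJURP at 8.83 against 15.1 and 15.0 FPKM.

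The lowest difference among the 9 genes was that of a CAF-1 subunit. CHAF1B, its middle subunit, had 16.5 and 15.8 FPKM in the controls and 8.91 FPKM in siE2F1. The siE2F1 level was 55.2% of the control mean, and the controls lay close together. The log2 difference was -0.79 ± 0.0682 (SE; limma adjusted p = 0.111 over all genes tested, and 0.0306 once small RNA genes were left out), lower than in all but 2.68% of genes tested.

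CHAF1A, the large subunit that binds the replication clamp PCNA, had 19.7 and 17.1 FPKM in the controls and 11.9 FPKM in siE2F1. The library with siE2F1 was again lowest, but here the controls differed more than for any other of the 9 genes (0.19 log2 units). The log2 difference was -0.58 ± 0.117 (SE; limma adjusted p = 0.130, and 0.0498 without small RNA genes). Against control 0 it was -0.68 and against control 1 -0.49.

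The ratio of CHAF1A to CHAF1B in FPKM was 1.19 and 1.09 in the controls and 1.34 in siE2F1. It was thus higher in siE2F1 than in either control, by 0.200 from a control mean of 1.14 ± 0.0731 (SD, n = 2). With 1 library against 2 this difference was not tested. RBBP4, the remaining CAF-1 subunit, which also serves in other chromatin complexes, was at 22.8, 23.2 and 23.7 FPKM. It was chosen after seeing its values, and its difference was 0.04 (limma adjusted p = 0.693, and 0.741 without small RNA genes).

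The ASF1 paralogs stood at like levels and both were lower. ASF1B, the form linked to proliferation, had 15.9 and 16.2 FPKM in the controls and 10.3 FPKM in siE2F1. ASF1A, the form that works more with HIRA, had 20.0 and 21.2 FPKM in the controls and 14.9 FPKM in siE2F1. In both genes siE2F1 was the lowest library, as for 39.7% of all genes tested, and each control pair lay within 0.08 log2 units. The log2 difference was -0.59 ± 0.0602 (SE) for ASF1B (limma adjusted p = 0.111, and 0.0364 without small RNA genes). For ASF1A it was -0.45 ± 0.0721 (SE; limma adjusted p = 0.116, and 0.0476 without small RNA genes).

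ASF1B made up 44.3% and 43.4% of the summed FPKM of the paralogs in the controls and 41.0% in siE2F1. The siE2F1 share was 2.86 percentage points below the control mean of 43.8% ± 0.667 (SD, n = 2), which was not tested. ASF1A was thus the more abundant paralog in all 3 libraries.

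**Figure D2:**
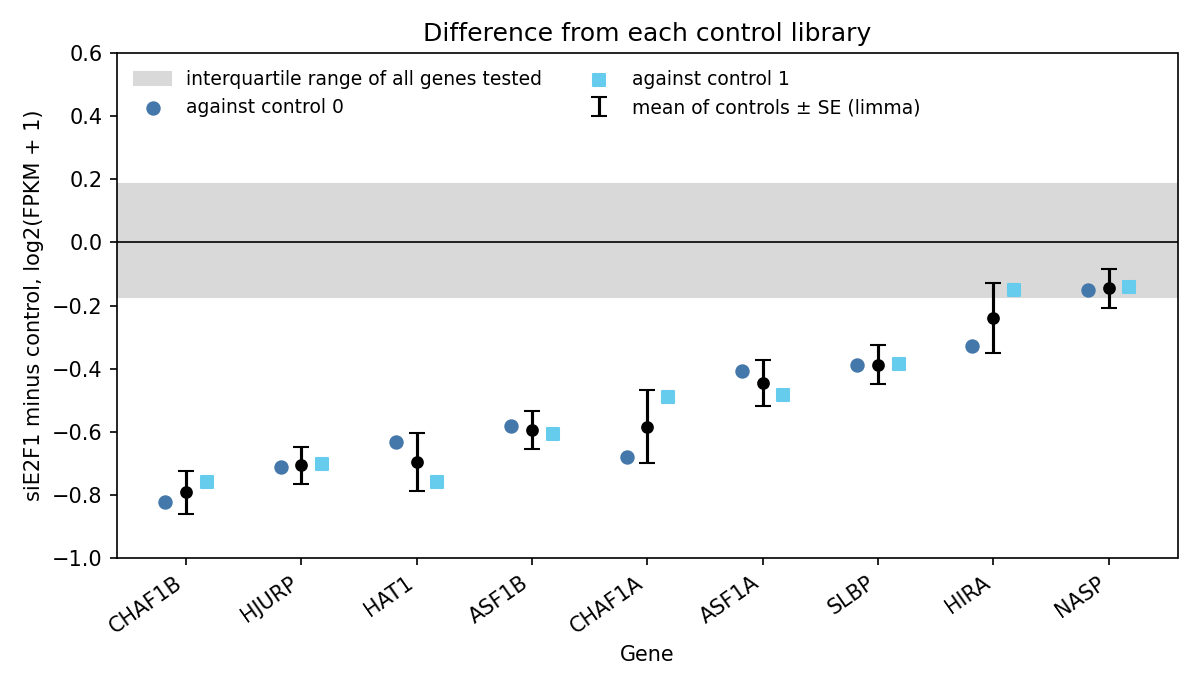
Log2(FPKM + 1) of siE2F1 minus control 0 (circles), control 1 (squares) and the control mean (black, with the limma standard error from the fit over all genes tested), for the 9 genes from the lowest to the highest difference; the grey band is the interquartile range of all genes tested (-0.17 to 0.18). The black points run from CHAF1B at -0.79 to NASP at -0.15, and only NASP and the comparison of HIRA with control 1 fall inside the band.

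Of the genes whose proteins handle new histones before they reach DNA, HAT1 was called without small RNA genes and NASP was not; the difference between them was not tested. HAT1, which acetylates newly made histone H4 in the cytosol, had 58.7 and 64.2 FPKM in the controls and 37.5 FPKM in siE2F1, or 61.1% of the control mean. Both controls were well above siE2F1, although they were 0.13 log2 units apart. The log2 difference was -0.70 ± 0.0906 (SE; limma adjusted p = 0.111, and 0.0365 without small RNA genes).

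NASP, which holds a reserve of soluble H3 and H4, had 46.2 and 45.9 FPKM in the controls and 41.5 FPKM in siE2F1. The siE2F1 library was still the lowest, at 90.2% of the control mean. The log2 difference of -0.15 ± 0.0604 (SE) was not called (limma adjusted p = 0.250, and 0.240 without small RNA genes), and 27.9% of all genes tested had a lower one. RBBP7, the partner subunit of HAT1, was at 68.5, 67.4 and 72.4 FPKM. It lay slightly above both controls, was not called (limma adjusted p = 0.413) and was chosen after seeing its values.

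HIRA, the chaperone that places H3.3 independently of replication, had 16.2 and 14.2 FPKM in the controls and 12.7 FPKM in siE2F1. The gap between its controls (0.18 log2 units) was of the size of the difference itself. That difference was -0.24 ± 0.111 (SE; limma adjusted p = 0.280, and 0.198 without small RNA genes). It was -0.33 against control 0 and -0.15 against control 1. HIRA's ratio to CHAF1B was 0.979 and 0.902 in the controls and 1.42 in siE2F1. HIRA was thus slightly below CHAF1B in the controls and above it in siE2F1; this change was not tested.

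Other genes for H3.3 deposition are given as values. UBN1, a HIRA partner, was at 12.4, 11.1 and 12.3 FPKM, and lay between the controls. CABIN1, another partner, had 10.1 and 8.96 FPKM in the controls and 11.6 FPKM in siE2F1 (log2 difference 0.26, limma adjusted p = 0.235, and 0.161 without small RNA genes). ATRX, which acts with DAXX at heterochromatin, was at 16.2, 16.1 and 18.1 FPKM (0.16, limma adjusted p = 0.228). UBN1, CABIN1 and ATRX were chosen after seeing their values.

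HJURP places CENP-A, the H3 variant that marks centromeres. It had 15.1 and 15.0 FPKM in the controls and 8.83 FPKM in siE2F1, 58.7% of the control mean. The controls were nearly equal, and siE2F1 lay far below them. The log2 difference was -0.71 ± 0.0589 (SE; limma adjusted p = 0.111, and 0.0325 without small RNA genes). CENPA, its cargo, had 13.4 and 15.0 FPKM in the controls and 7.87 FPKM in siE2F1 (log2 difference -0.77, limma adjusted p = 0.111, and 0.0365 without small RNA genes). OIP5 and MIS18A, of the complex that brings HJURP to centromeres, stood at differences of -1.12 and -0.53 and were called without small RNA genes (limma adjusted p = 0.0272 and 0.0384). MIS18A was chosen after seeing its values.

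SLBP was the most abundant of the 9 genes. It was at 73.1 FPKM in each control and 55.7 FPKM in siE2F1, 76.2% of the control mean. The controls were closer together than for 99.0% of genes tested. The log2 difference was -0.39 ± 0.0610 (SE; limma adjusted p = 0.115, and 0.0496 without small RNA genes), and its call and that of CHAF1A sit just under the threshold.

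**Figure D3:**
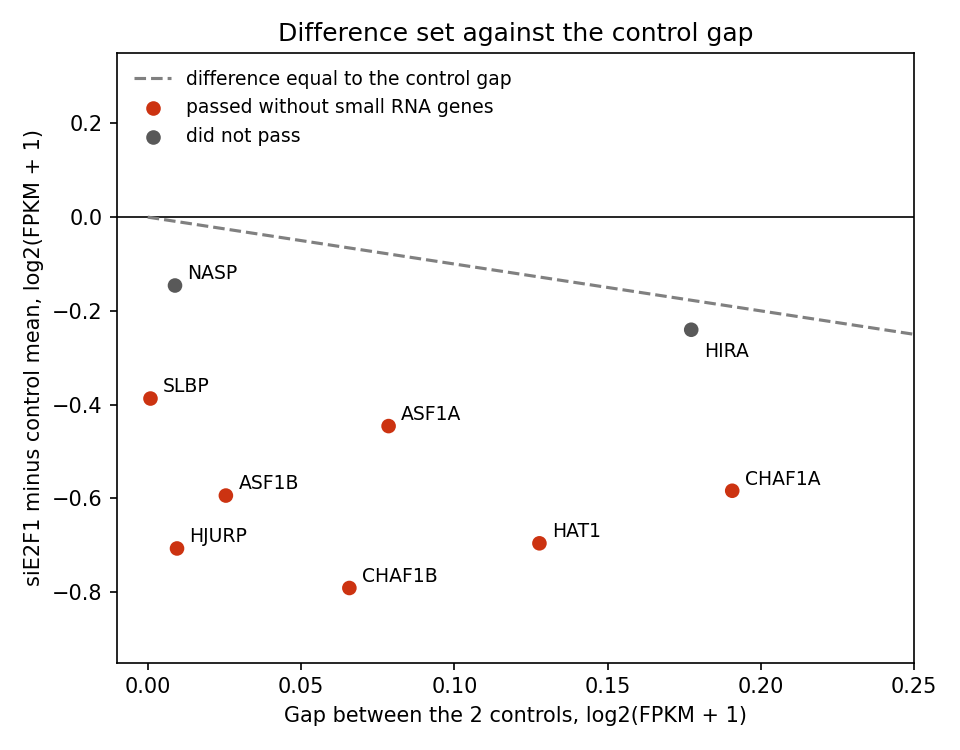
Size of the gap between the 2 controls (x axis) against siE2F1 minus the control mean (y axis), both in log2(FPKM + 1), for the 9 genes; red points passed limma without small RNA genes and the dashed line marks a difference as large as the control gap. HIRA (gap 0.18, difference -0.24) lies nearest the line, and HJURP (gap 0.01, difference -0.71) is among those far from it.

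Beyond SLBP, 16 factors that transcribe, process or degrade histone messages were measured and tested. Of these, 12 were below both controls and 4 above, against 39.7% and 43.7% of all genes tested (median difference -0.11, that of all genes tested 0.01). None was called by limma over all genes tested, with 6 at an unadjusted p under 0.05 (28.4% of all genes tested). Without small RNA genes 2 were called lower and 1 higher, against 6.36% and 4.17% of all genes in that fit, which puts these counts within 1 gene or so of the background.

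LSM11, of the U7 particle that cuts histone messages, had 1.99 and 1.92 FPKM in the controls and 1.03 FPKM in siE2F1 (log2 difference -0.54, limma adjusted p = 0.113, and 0.0498 without small RNA genes). CPSF3, the endonuclease that makes the cut, was at 24.0, 24.8 and 16.7 FPKM (-0.52, limma adjusted p = 0.0392 without small RNA genes). ZCCHC6, a uridylyltransferase that marks RNAs for decay, was higher, at 5.57 and 5.73 FPKM in the controls and 8.36 FPKM in siE2F1 (0.49, limma adjusted p = 0.111, and 0.0407 without small RNA genes). NCBP1, of the nuclear cap-binding complex, was at -0.32 and did not pass (limma adjusted p = 0.127, and 0.0721 without small RNA genes). NPAT, the activator of histone gene transcription, was at 4.26, 4.55 and 4.02 FPKM (-0.11, limma adjusted p = 0.422) and was chosen after seeing its values.

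A list of 29 other chaperones and assembly factors had 28 in the files, all tested. Of the 28, 17 were below both controls, 7 above and 4 between or level with them (median difference -0.15). Among all genes tested 39.7% were below both and 43.7% above both. None was called over all genes tested (limma, 13 at an unadjusted p under 0.05, against 28.4% of all genes tested). Without small RNA genes 8 were called lower and 0 higher, against 6.36% and 4.17% of all genes in that fit. OIP5 was the farthest, at 16.2 and 17.6 FPKM in the controls and 7.22 FPKM in siE2F1. ANP32E, which removes the variant H2A.Z, had 75.8 and 79.3 FPKM in the controls and 36.6 FPKM in siE2F1 (-1.06, limma adjusted p = 0.111, and 0.0253 without small RNA genes).

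SET, a chaperone that inhibits histone acetylation, was at 120.7, 123.1 and 77.1 FPKM (-0.65, limma adjusted p = 0.0340 without small RNA genes). MCM2, the helicase subunit that binds H3 and H4 together with ASF1, was at 36.7, 33.0 and 22.0 FPKM (-0.64, limma adjusted p = 0.0394 without small RNA genes). The FACT subunits, which loosen and rebuild nucleosomes, were at -0.60 for SUPT16H (limma adjusted p = 0.0364 without small RNA genes) and -0.32 for SSRP1, which did not pass (limma adjusted p = 0.0873 without small RNA genes). TLK1 and TLK2, the kinases that phosphorylate ASF1, were at -0.13 and 0.04 and did not pass (limma adjusted p = 0.283 and 0.713). The FACT and TLK genes were chosen after seeing their values. SET is one of the genes with processed pseudogenes that can share reads.

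Of 10 variant and linker histone genes, among them the H3 variants that HIRA and HJURP carry, 9 were tested. Among the 9, 7 were below both controls, 1 above and 1 between (median difference -0.29). The shares of all genes tested were 39.7% below both and 43.7% above both. Without small RNA genes limma called 4 of the 9 lower and 0 higher, against 6.36% and 4.17% of all genes in that fit. Over all genes tested 0 were called, and 6 had an unadjusted p under 0.05 (28.4% of all genes). H2AFX, the variant phosphorylated at DNA breaks, was at 85.3, 86.1 and 46.8 FPKM (-0.86, limma adjusted p = 0.0272 without small RNA genes). H1FX, a linker histone, was at 68.3, 79.4 and 41.6 FPKM (-0.81, limma adjusted p = 0.0389 without small RNA genes). For the H3.3 genes H3F3A and H3F3B, H3F3B was at 139.1, 134.4 and 115.8 FPKM (-0.24, limma adjusted p = 0.114 without small RNA genes), and H3F3A at 7.63, 11.0 and 13.1 FPKM (0.47, limma adjusted p = 0.212 without small RNA genes). H3F3A has near-identical processed copies, and its controls differed by 0.48 log2 units, so its values are uncertain. H3F3B was chosen after seeing its values.

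**Figure D4:**
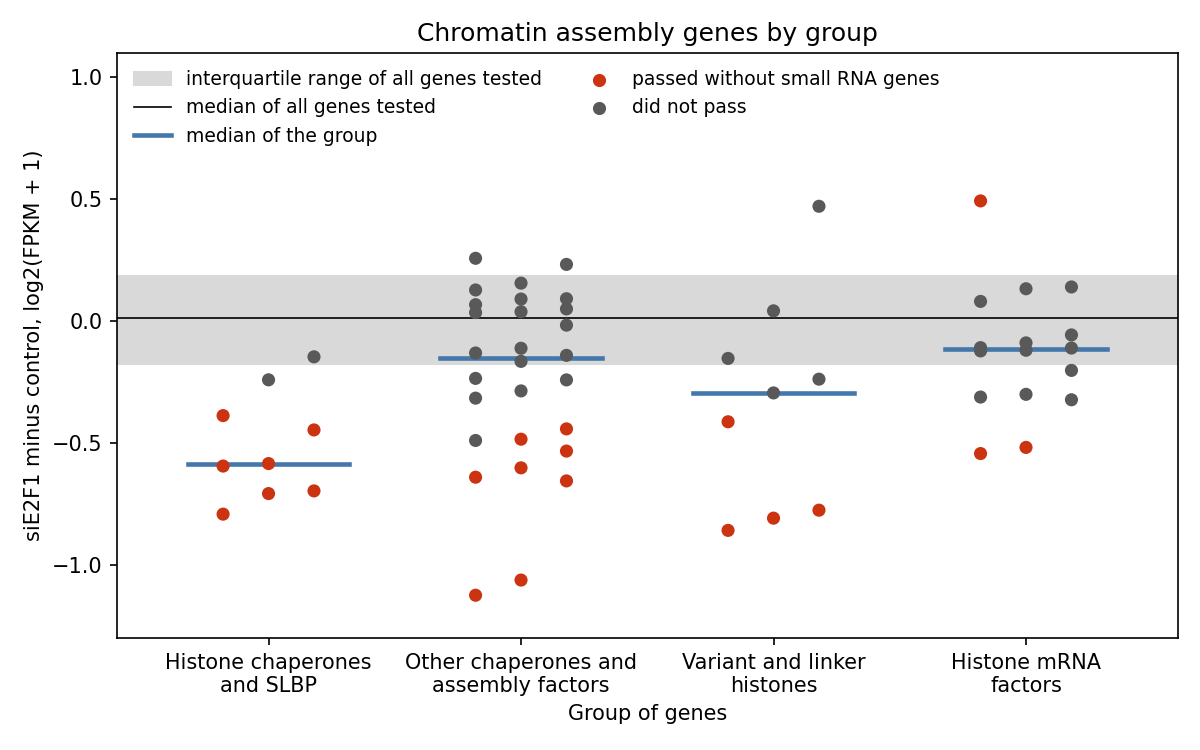
Log2(FPKM + 1) of siE2F1 minus the control mean for each tested gene of 4 groups, 1 point per gene; blue lines are group medians, the grey band is the interquartile range of all genes tested and red points passed limma without small RNA genes. All points of the histone chaperones and SLBP lie below 0 (median -0.58), while the other chaperones and assembly factors reach from -1.12 to 0.26.

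Genes with the profile most like the mean of the 9 were sought by Euclidean distance over the 3 libraries, each gene centred on its own mean. The nearest were KCNK1, ENTPD2, PSRC1, ITPK1 and ISOC1, at distances of 0.00633 to 0.00848 log2 units; KCNK1, a potassium channel, was at 10.6, 10.3 and 7.07 FPKM. Such likeness is common with 3 libraries: 365 of the 13919 genes compared lay at least as near as ASF1B, the nearest of the 9 at 0.0771. NASP was the farthest of the 9, at 0.297.

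Strand is not kept by the library kit, so overlapping genes may share reads. In a GENCODE annotation of GRCh38, exons of 6 of the 9 genes overlap those of another gene, and 4 of these neighbours were listed in the files. They were UBXN6 at CHAF1A (54.6, 62.3 and 60.1 FPKM), MORC3 at CHAF1B (15.4, 16.1 and 19.5 FPKM), MCM9 at ASF1A (4.22, 3.96 and 4.35 FPKM) and C22orf39 at HIRA (14.6, 16.8 and 14.9 FPKM). None of these neighbours was below both controls. HIRA also has a processed pseudogene, HIRAP1, that could take or give reads. The part of these genes in the values of the 9 was not tested.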

How the data were processed

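The authors deposited 1 table per library with log2 FPKM per gene and no header. Per the submitters' processing notes, TopHat2 2.0.4, Cufflinks 2.0.2 and hg19 were used; the annotation and parameters are not given in the sources used here. FPKM was computed as 2 to the deposited value minus 0.1, since the lowest value is log2 of 0.1. The deposited values share a median of 1.58 in all 3 libraries, as quantile normalization would give, so a change common to most genes cannot be seen. Log2(FPKM + 1) of genes averaging 1 FPKM or more was fitted on all 3 libraries by limma 3.58.1 (R 4.3.3; empirical Bayes with a mean-variance trend). The fit has 1 residual degree of freedom and takes the spread of siE2F1 to be that of the controls. Small RNA genes were found by name (SNOR, MIR, SCARNA or RNU at the start, host genes kept). The genes, lists and alternatives were chosen with earlier results of these data known. Named genes are the 9 genes, E2F1, the up to 4 members of each list with the largest absolute difference, and the 5 nearest profiles. Depth is unknown, so no counting interval can be given. Some list members enter the counts but are not reported singly here.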

Additional observations from a re-analysis of the deposited data

How the results depend on the processing

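Each of the 9 genes stayed lower in siE2F1 than in the controls under every alternative. That direction could hardly change, since siE2F1 was below both controls for all 9. The filters, the small RNA setting and the fit without a mean-variance trend leave each difference as it was. Another pseudocount or offset keeps the order of the libraries within a gene. Leaving out 1 of the 2 controls cannot put siE2F1 above the other. Of 90 values for single genes, 83 kept their side of the threshold or, where untested, moved by less than the control spread. The untested values, with 1 of the 2 controls left out, could not do otherwise: that step always moves a difference by less than this spread. Setting the libraries to a common median left the differences unchanged, so that setting is no check either. Quantile normalization is hardly a check, since the deposited values already had nearly the same distribution. It moved the difference of CHAF1A only from -0.5836 to -0.5834. The other 7 values passed the threshold, all without small RNA genes. That setting gave 7 of the 9 genes called lower against 0, and 8, 2 and 4 members called lower of the assembly, histone mRNA and variant histone lists, against 0 each. The prior degrees of freedom were 1.69 with and 3.19 without small RNA genes. The adjusted p of CHAF1A, SLBP and ASF1A was 0.0498, 0.0496 and 0.0476 there, so these calls have little margin. The range of adjusted p over the alternatives was 0.0306 to 0.188 for CHAF1B and 0.198 to 0.362 for HIRA. The call of E2F1 was lost at a pseudocount of 0.1 (log2 difference -2.59, limma adjusted p = 0.0601) and when genes of any mean level were tested (-2.12, limma adjusted p = 0.159); the cause was not tested. Leaving out 1 control gave values with no test: the median of the 9 genes was -0.58 to -0.49, and HIRA was -0.15 without control 0. No paired analysis was possible because there is only 1 siE2F1 library. Depth is unknown, so what it limits cannot be stated.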
